A study of Mus musculus with 3 samples.

Results

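The 39 Hox genes were examined in peak lists of open chromatin from hair follicle stem cells (HFSCs) of mouse dorsal skin. Members were the protein-coding genes whose symbol is Hoxa, Hoxb, Hoxc or Hoxd followed by a number in the GENCODE M21 annotation of GRCm38, and they made up 39 of 21851 protein-coding genes. They fell into 11 Hoxa, 10 Hoxb, 9 Hoxc and 9 Hoxd genes. The choice used the symbols only and no measured value.

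Hox genes encode homeodomain transcription factors that give cells their position along the body axis. They lie in clusters on separate chromosomes, in the order of their paralogue group, so that low-numbered (anterior) genes stand at one end and high-numbered (posterior) genes at the other, and genes with the same number in different clusters are paralogues. Polycomb complexes keep the clusters silent where they are not used and Trithorax complexes keep used genes active, and adult skin cells retain a regional Hox pattern. Hoxc13 in addition is known as a regulator of hair keratin genes in the hair follicle.

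Omni-ATAC-seq, in which the transposase Tn5 cuts and tags open DNA, was run on HFSCs sorted as CD34+ CD49f+ Sca-1- cells from untreated 6-month-old mice whose hair follicles were resting (telogen). The Msx2-WT group held 1 library, named WT here, and the Msx2-KO group held 2, replicates 1 and 2, named KO1 and KO2. Msx2-KO mice carry a pMC1-neo cassette inserted before exon 2 of both copies of Msx2 in every cell of the body, and, per the study's methods, the controls were C57BL/6J mice at the same hair cycle stage. Msx2 encodes a homeodomain factor but is no member of a Hox cluster. By the labels, WT came from one batch and KO1 and KO2 from another: genotype cannot be told apart from batch, and a single WT library allowed no test of genotype. Peak names in the lists of KO1 and KO2 contain "cKO", and those of KO1 a library number other than that of its label, and the labels were followed. All shares and tag numbers are descriptions, and their intervals cover counting error only.

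Read totals are not part of the lists, and tag numbers solved from the deposited values served as the measure of depth. The commonest local background was 1.74 tags in WT, 0.476 in KO1 and 0.79 in KO2, so that WT was 3.65 times as deep as KO1. Tags over the background, unless called local, are divided by this 1 number per library. The peak calls rest instead on the local background at each summit, and the 2 measures can differ in direction between libraries. A summit was called a peak where its −log10 q exceeded 2, which took at least 9 tags in WT, 5 in KO1 and 6 in KO2, and gave 29817, 18518 and 37012 peaks. Of 10 HFSC marker genes, 7, 7 and 9 had a promoter peak in WT, KO1 and KO2, with none at Nfatc1 and Lgr5 and Tbx1 with a peak in KO1 and KO2 alone. Leukocyte markers had 0 of 5 in each library, endothelial markers 0, 1 and 2 of 4, melanocyte markers 3, 2 and 3 of 5, interfollicular epidermis markers 2, 0 and 0 of 5, and dermal fibroblast markers 2, 1 and 4 of 7, where Lum, Dcn and Twist2 had none. Of these markers, Col1a2 and Tek had a peak in KO1 and KO2 alone, and Krt10 and Ly6a, which encodes the Sca-1 that the sort excludes, in WT alone. Whether other skin cells contributed to the Hox values was not tested. The Msx2 promoter carried 15, 9 and 16 tags, which does not check the genotype, since the cassette lies outside it.

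Few Hox promoters were open. A summit within 1500 bases of an annotated start was found for 12 of 39 genes in WT (30.8%, 95% Wilson interval 18.6 to 46.4%), 6 in KO1 (15.4%, 7.25 to 29.7%) and 12 in KO2 (30.8%, 18.6 to 46.4%). Among all protein-coding genes the shares were 47.1, 37.9 and 53.7%, each above the upper end of the Hox interval of the same library. Neighbouring Hox genes share regions and are not independent, which these intervals do not cover. When each list was shortened to the same number of summits, the Hox counts were 5, 6 and 5. These were 12.8, 15.4 and 12.8%, against 39.2, 37.9 and 40.9% of all genes. The lower count of KO1 was thus not seen with lists of equal length.

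**Figure D1:**
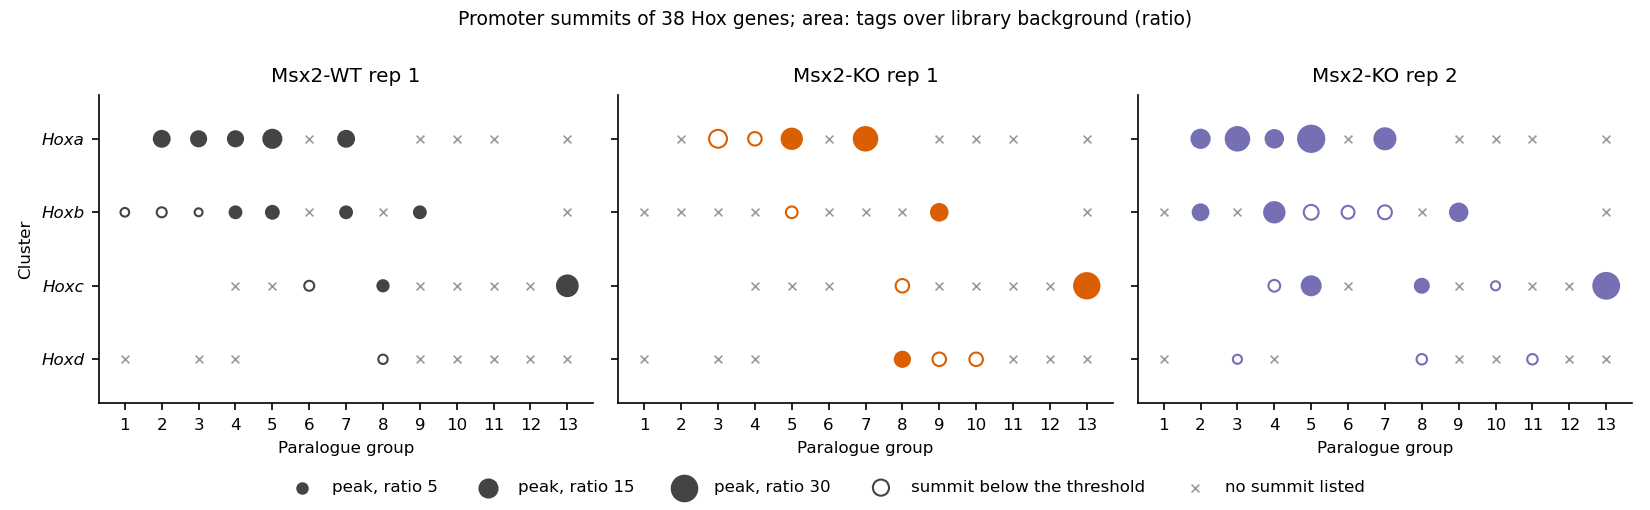
Promoter summits of 38 Hox genes by cluster (rows) and paralogue group (columns) in each library. Filled circles are peaks, open circles are deposited summits below the threshold, circle area is the number of tags over the library background, and crosses mark genes with no deposited summit. Hoxa groups 2 to 7 hold 5, 2 and 5 filled circles, whereas groups 10 to 12 hold none in any library.

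The 39 genes split into 5 with a peak in all 3 libraries (among them Hoxa5, Hoxa7, Hoxb9 and Hoxc13), 5 in 2 libraries (Hoxa2, Hoxa3, Hoxa4, Hoxb4 and Hoxc8), 5 in 1 library (Hoxb2, Hoxb5, Hoxb7, Hoxc5 and Hoxd8) and 24 in none. All 5 genes with a peak in 2 libraries had it in WT and KO2, the deeper libraries. Over all genes, 35.2% had a promoter peak in all 3 libraries and 43.8% in none. Of the 24 Hox genes without a peak, 10 had a weaker deposited summit in 1 library (Hoxb1, Hoxb3, Hoxb6, Hoxc4, Hoxc6, Hoxc10, Hoxd3, Hoxd9, Hoxd10 and Hoxd11), with 3 to 8 tags. The other 14 (Hoxa6, Hoxa9, Hoxa10, Hoxa11, Hoxa13, Hoxb8, Hoxb13, Hoxc9, Hoxc11, Hoxc12, Hoxd1, Hoxd4, Hoxd12 and Hoxd13) had no summit listed in any library.

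The clusters differed in how much of them lay inside peaks. Windows ran from the first to the last Hox gene with 10 kb on each side, at chr6:52145590-52270880 for Hoxa (125 kb), chr11:96184316-96378256 for Hoxb (194 kb), chr15:102911103-103046852 for Hoxc (136 kb) and chr2:74658310-74775142 for Hoxd (117 kb). Hoxa had 4.82% of its bases inside peaks in WT, 3.46% in KO1 and 8.73% in KO2. Hoxc had 2.77, 2.51 and 6.32%, and Hoxb 2.2, 1.49 and 4.29%. Hoxd had 0, 0.44 and 0.419%. The order Hoxa, Hoxc, Hoxb, Hoxd was the same in each library, and the first 3 exceeded the genome-wide share of that library (0.65, 0.559 and 1.23%) while Hoxd did not. The genome-wide share is not matched to the windows for gene density. Peak widths differed between libraries, with medians of 548, 769 and 848 bases genome-wide, and covered bases cannot be set between libraries as a measure of openness.

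**Figure D2:**
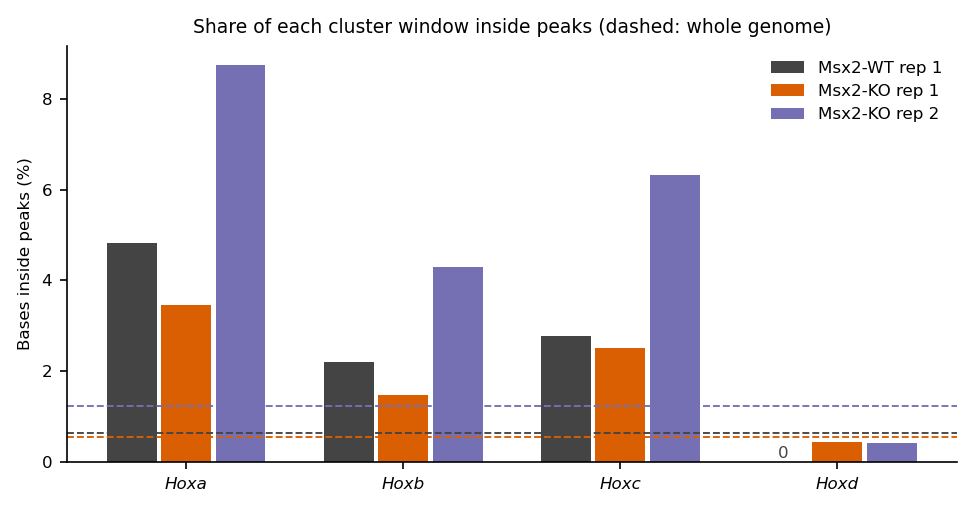
Percentage of the bases of each Hox cluster window that lie inside peaks, by library. Dashed lines give the same percentage for the whole genome, in the colour of the library. Hoxa stands highest in each library and Hoxd lies below the genome line in each.

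Counted as peaks, Hoxa held 10, 4 and 10 in WT, KO1 and KO2, Hoxb 9, 3 and 7, Hoxc 6, 3 and 7, and Hoxd 0, 1 and 1. The 4 windows together had 4.37, 1.92 and 4.37 peaks per 100 kb, against 1.09, 0.679 and 1.36 in the genome. The windows as a whole were thus denser in peaks than the genome, while a smaller share of Hox promoters than of all promoters was open. The genome value takes in all bases of the chromosomes, whereas the windows hold 39 Hox genes in 572 kb. Density was not compared with windows of like gene content. Promoters with a peak numbered 6, 3 and 6 of 11 in Hoxa, 4, 1 and 3 of 10 in Hoxb, 2, 1 and 3 of 9 in Hoxc and 0, 1 and 0 of 9 in Hoxd.

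**Figure D3:**
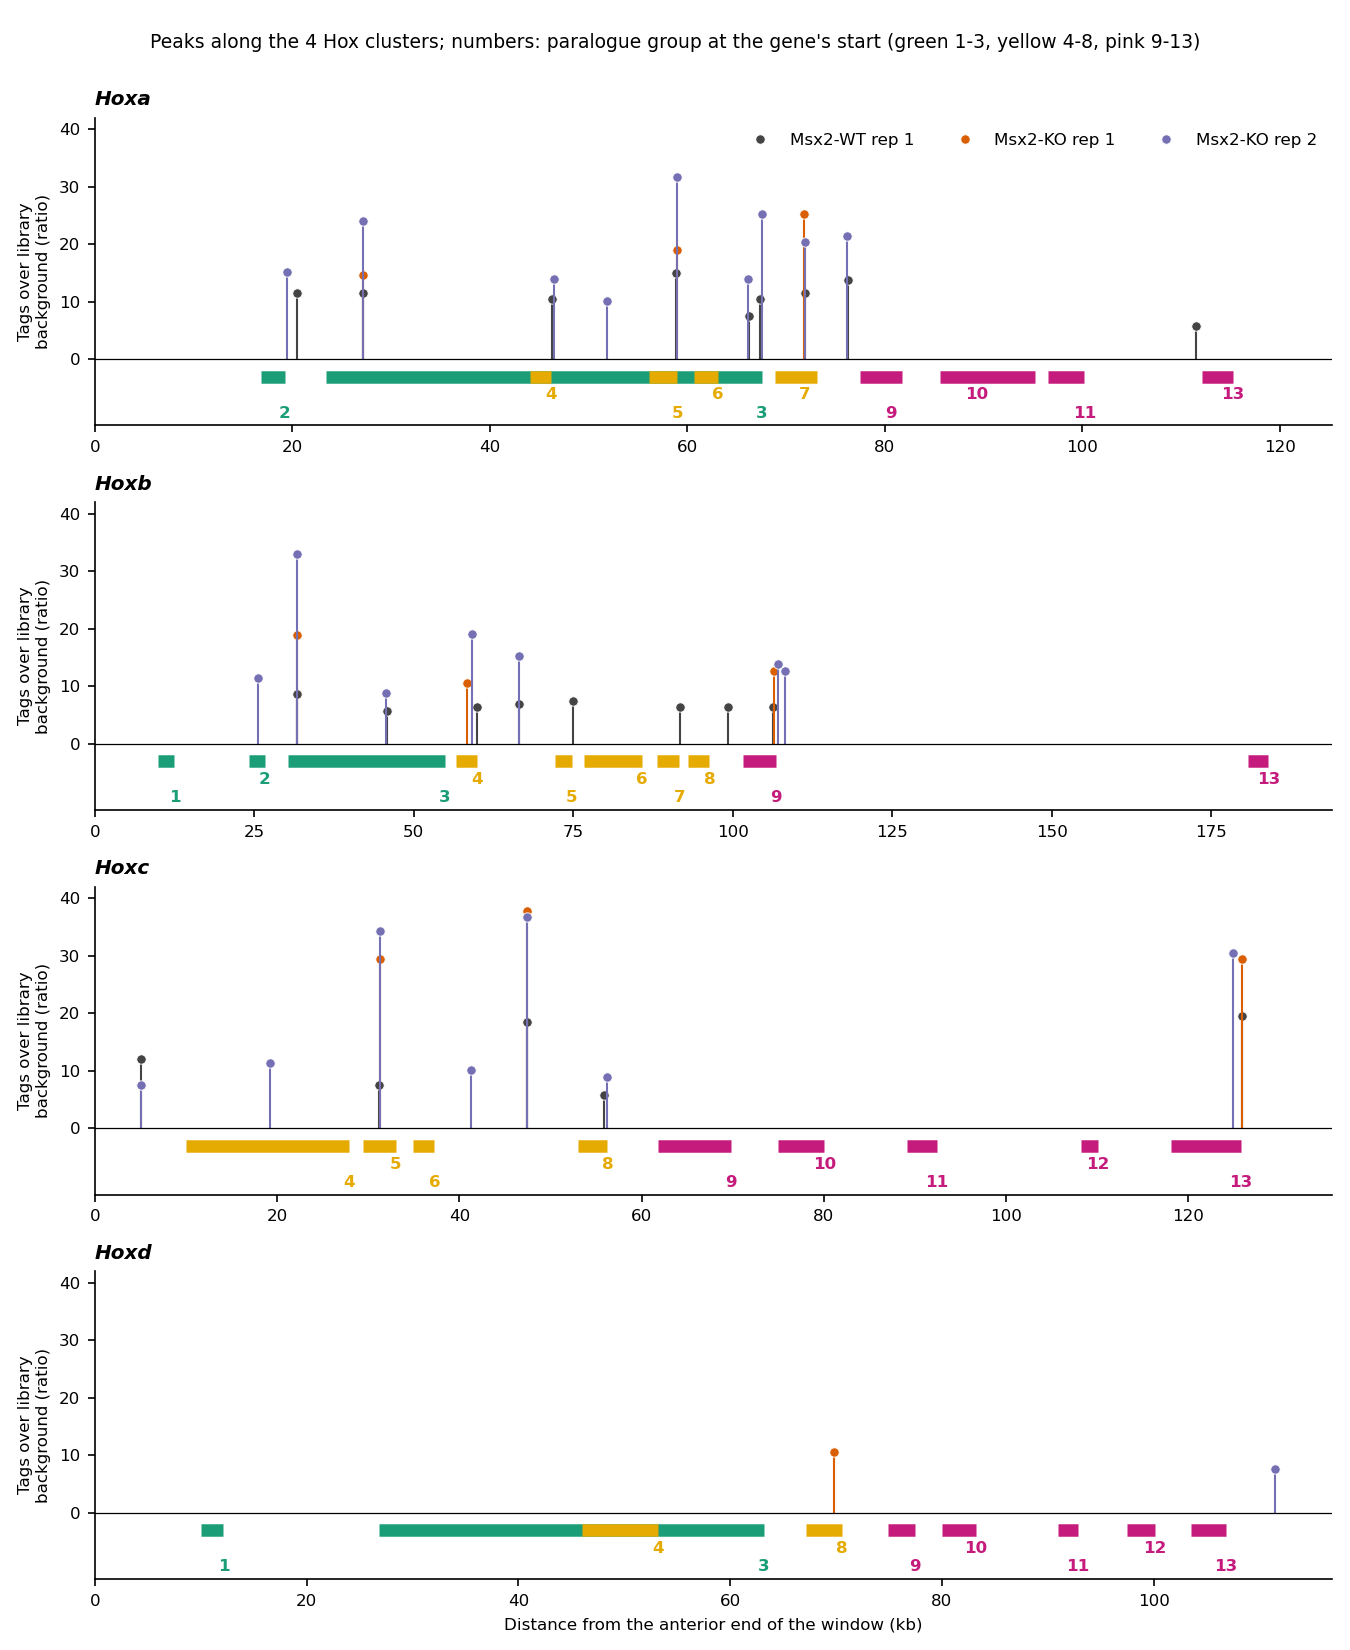
Peaks along the 4 Hox clusters, each drawn from its anterior end in kb. Stems stand at the strongest summit of each region drawn (1 region is left out), their height is the number of tags over the library background, and bars below mark 38 genes with the paralogue group at the start (green groups 1 to 3, yellow 4 to 8, pink 9 to 13). In Hoxa and Hoxc a stretch over posterior genes has no stem, Hoxc13 carries stems of all 3 libraries at the far end, and Hoxd has 2 stems in all.

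Merging peaks that shared at least 1 base gave 30 regions in the windows, of which 11 lay in Hoxa, 10 in Hoxb, 7 in Hoxc and 2 in Hoxd. Regions in all 3 libraries numbered 4, 3, 3 and 0. By place, 16 of 30 lay at promoters, 3 in exons, 3 in introns and 8 between genes.

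In Hoxa, 10 of the 11 regions lay on the anterior side of Hoxa9. Hoxa5, known for its part in lung and upper trunk development, had 26 tags in WT (95% Poisson interval 17 to 38.1), 9 in KO1 (4.12 to 17.1) and 25 in KO2 (16.2 to 36.9), or 15, 18.9 and 31.6 times the background, with summits within 91 bases of the start. Hoxa7, which is expressed in keratinocytes, had 20 (12.2 to 30.9), 12 (6.2 to 21) and 16 tags (9.15 to 26), or 11.5, 25.2 and 20.3 times the background, in a region whose −log10 q was 4.6, 3.89 and 3.74 (chr6:52216770-52218368). Over the local background, the fold at Hoxa7 was 3.6, 4.36 and 3.48. Hoxa2, Hoxa3 and Hoxa4 had 20, 18 and 18 tags in WT and 12, 20 and 11 in KO2, whereas KO1 listed no summit at Hoxa2 and weaker ones of 7 and 4 tags at Hoxa3 and Hoxa4. The annotated start of Hoxa3 lies between Hoxa6 and Hoxa7, far from its coding exons. A region in the exons of Hoxa3 (chr6:52172043-52173429), beside the start of the antisense gene Gm15050, had 20, 7 and 19 tags. Hoxa6 had no summit in any library.

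The last Hoxa region before the posterior genes (chr6:52221428-52222142, between Hoxa7 and Hoxa9) had 24 tags in WT and 17 in KO2 and no summit in KO1. From there no peak was found for 34.9 kb in WT (chr6:52222143-52257065), over the starts of Hoxa9, Hoxa10 and Hoxa11. In KO2 the stretch ran on for 48.7 kb through Hoxa13 to the end of the window, and in KO1 for 52.5 kb from within Hoxa7. The WT stretch ended at a region of 10 tags, 3655 bases downstream of the start of Hoxa13 (chr6:52257066-52257323), which had no summit in either Msx2-KO list.

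In Hoxb, the open promoter of all 3 libraries was that of Hoxb9, a gene of thoracic patterning, with 11 tags in WT (5.49 to 19.7), 6 in KO1 (2.2 to 13.1) and 11 in KO2 (5.49 to 19.7), or 6.33, 12.6 and 13.9 times the background (chr11:96270738-96272652, −log10 q 3.34, 2.73 and 4.43). For comparison, the lowest tag numbers that passed anywhere were 9, 5 and 6. The strongest Hoxb region lay in exons of Hoxb3 (chr11:96346038-96346990, 2736 bases downstream of the start), with 15, 9 and 26 tags and −log10 q of 5.68, 3.65 and 13.6, while the Hoxb3 starts themselves had no peak. The Hoxb4 region (chr11:96318165-96320154) had 11, 5 and 15 tags, and its summit in KO1 lay more than 1500 bases from the start. Hoxb4 is known for its role in blood stem cells. From the end of the window past Hoxb13 up to Hoxb9, 87.2, 86.8 and 85.2 kb held no peak.

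Hoxb5 and Hoxb7 had a peak in WT and in neither Msx2-KO library. At Hoxb5 the summit had 13 tags in WT (6.92 to 22.2), and weaker summits of 3 (0.619 to 8.77) and 8 tags (3.45 to 15.8) stood in KO1 and KO2. At Hoxb7 it had 11 tags in WT (5.49 to 19.7) and 7 in KO2 (2.81 to 14.4), below the threshold, with none listed in KO1. Over the local background, the fold at Hoxb5 was 3.71, 2.34 and 2.84 in WT, KO1 and KO2, and at Hoxb7 3.57 in WT and 3.38 in KO2. Over the library background, the Hoxb5 summits stood at 7.48, 6.3 and 10.1 in WT, KO1 and KO2, and the Hoxb7 summits at 6.33 in WT and 8.86 in KO2. The KO2 values over the library background are to be read beside the ratio of KO2 to WT at promoters open in all 3 libraries, which had a median of 2.29 over all genes. Hoxb2 had 8 tags below the threshold in WT, 9 tags and a peak in KO2 and no summit in KO1, or 4.6 and 11.4 times the background.

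In Hoxc, Hoxc13 stood apart from its posterior neighbours. Its promoter (chr15:102920678-102922376) had 34 tags in WT (23.5 to 47.5), 14 in KO1 (7.65 to 23.5) and 24 in KO2 (15.4 to 35.7), or 19.6, 29.4 and 30.4 times the background, with a −log10 q of 18.2, 8.04 and 12. The summits lay upstream of the start in WT and KO1, at positions −178 and −124, and 872 bases downstream in KO2. It was the strongest Hox promoter in WT and KO1, at percentiles 64.3 and 54.9 of all promoter peaks of the library by −log10 p, and stood at percentile 46.9 in KO2. Next to it, Hoxc12, Hoxc11, Hoxc10 and Hoxc9 lay in a peak-free stretch of 68.3 kb in WT (chr15:102922205-102990467), 76.9 kb in KO1, where it took in Hoxc8, and 67.7 kb in KO2. Hoxc8, a thoracic patterning gene, had 10 tags in WT and 7 in KO2 as peaks, and 4 below the threshold in KO1.

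The Hoxc region with the largest −log10 q in its weakest library lay between genes (chr15:102998719-103000380), 8786 bases downstream of the Hoxc8 start and before Hoxc6. It had 32, 18 and 29 tags, or 18.4, 37.8 and 36.7 times the background, with a −log10 q of 17, 10.4 and 13.5. Among the Hox regions of all 3 libraries it was the only one outside promoters and exons. The 150 bases about its WT summit are shown because they hold both TAATTG matches, in capitals, found in the 300 bases about that summit. The rest of the region was not searched. Msx2 and many other homeodomain proteins can bind this core. The sequence is the plus strand of GRCm38.p6 from RefSeq, at chr15:102999318-102999467.
Hoxc8 to Hoxc6 region: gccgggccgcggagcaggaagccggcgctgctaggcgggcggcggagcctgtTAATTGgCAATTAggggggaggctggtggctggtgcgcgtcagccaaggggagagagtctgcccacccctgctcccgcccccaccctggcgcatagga
The matches are in opposite directions and 1 base apart. TAATTG was found on either strand in 10.2% of all regions, in 300 bases about the summit, and in 4 of 30 Hox regions (13.3%). A match is a description and not a bound site.

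A region in an exon of Hoxc5 (chr15:103014191-103015875), beside the microRNA gene Mir615, had 13 tags in WT, 14 in KO1 and 27 in KO2, or 7.48, 29.4 and 34.2 times the background. The Hoxc5 promoter had a peak in KO2 alone, with 13 tags. Beyond the Hoxc4 end, a region (chr15:103040945-103042119) had 21 tags in WT, 6 in KO2 and no summit in KO1, and at 12.1 and 7.59 times the background it was lower in that Msx2-KO library.

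Hoxd, which patterns digits, genitalia and the trunk, had no peak in WT and 1 deposited summit below the threshold. Its Hoxd8 promoter had 7 tags in WT (2.81 to 14.4), 5 in KO1 (1.62 to 11.7) and 4 in KO2 (1.09 to 10.2), of which KO1 alone passed the threshold, at a −log10 q of 2.32. Over the background these were 4.03, 10.5 and 5.06. A single region of 6 tags lay between Hoxd13 and Evx2 in KO2 (chr2:74663323-74663812). Hoxd1, Hoxd4, Hoxd12 and Hoxd13 had no summit in any list.

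Pooled over the 4 clusters, posterior genes were the least often open in the deeper libraries, but the clusters differed. Of 8 anterior genes (groups 1 to 3), 3, 1 and 4 had a promoter peak in WT, KO1 and KO2. Of 15 central genes (groups 4 to 8), 7, 3 and 6 did, and of 16 posterior genes (groups 9 to 13), 2, 2 and 2. In Hoxa, 3, 1 and 3 of 3 anterior genes had a peak, and 0 of 4 posterior genes in each library. Hoxb did not share this order, with 0, 0 and 1 of 3 anterior and 1, 1 and 1 of 2 posterior genes. Hoxc has no anterior gene, and Hoxd had no peak in either class. Hoxa3, counted as anterior, was open in WT and KO2 at its start between Hoxa6 and Hoxa7. The same posterior genes, Hoxb9 and Hoxc13, were open in each library. Posterior minus anterior, the share differed by −25 percentage points in WT (95% Newcombe interval −58.2 to 8.47), 0 in KO1 (−35.7 to 25.7) and −37.5 in KO2 (−67.4 to −0.563). With groups 1 to 8 pooled, posterior genes differed from them by −31 points in WT and in KO2 (−52.6 to −1.45 in each) and by −4.89 in KO1 (−26.6 to 20.8). In groups 10 to 13, Hoxc13 was the only 1 of 12 genes with a peak. With stricter lists, lists of equal length or every deposited peak, the KO2 interval of posterior minus anterior took in positive values. These intervals treat genes as independent, which genes of a cluster are not, and no test was run.

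**Figure D4:**
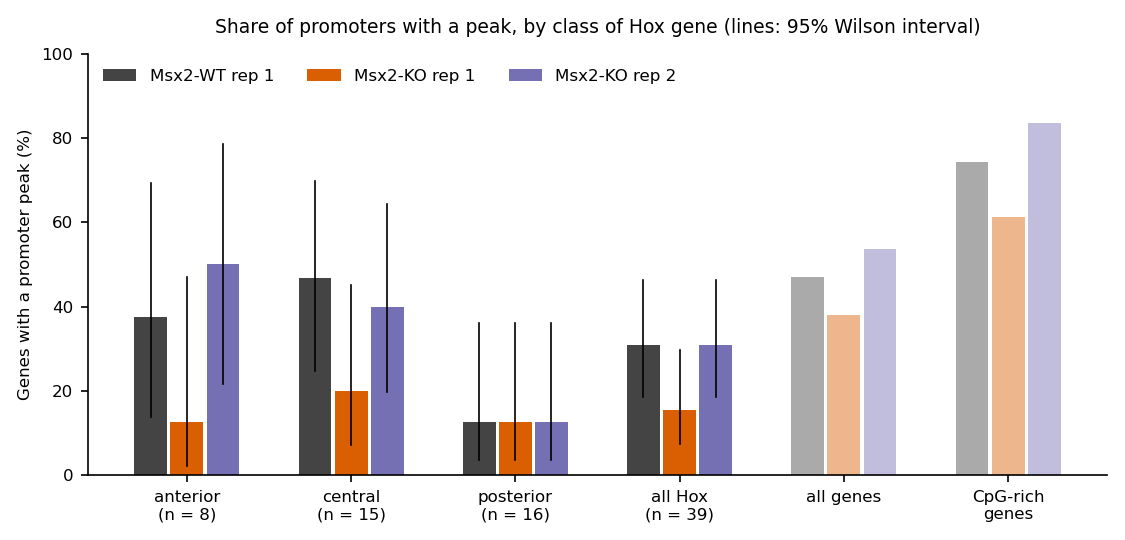
Percentage of genes with a promoter peak for anterior, central and posterior Hox genes, all Hox genes, all protein-coding genes and genes with a CpG-rich start, by library. Lines are 95% Wilson intervals and pale bars are the whole-annotation values. Posterior genes stand at 12.5% in each library, and the bars of all genes and of CpG-rich genes are higher than that of all Hox genes throughout.

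The state of the promoters was set beside their content of CpG, the dinucleotide in which most mammalian promoters of widely used and developmental genes are rich. A start was called CpG-rich where 501 bases about it held at least 0.6 of the CpG expected from their base composition and at least 50% G+C. Of the Hox genes 26 of 39 (66.7%) had such a start, against 53.5% of all genes. By class they were 4 of 8 anterior, 8 of 15 central and 14 of 16 posterior genes (87.5%). Among all 11699 genes with a CpG-rich start, 74.4, 61.3 and 83.6% had a peak in WT, KO1 and KO2. Among the 26 Hox genes, 9, 6 and 8 did (34.6, 23.1 and 30.8%), while 5 had one in all 3 libraries, against 57.9% of all CpG-rich genes, and 16 had none, against 14.2%. Of the 13 Hox genes without such a start, 3, 0 and 4 had a peak (23.1, 0 and 30.8%, against 15.7, 11 and 19.3% of all such genes) and 0 had one in all 3 libraries, so that all 6 KO1 peaks were at CpG-rich starts. Of the 14 posterior genes with a CpG-rich start, 12 had no peak in any library. The CpG ratio had a median of 0.821 in the 15 Hox genes with a peak in any library and 0.817 in the 24 without.

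**Figure D5:**
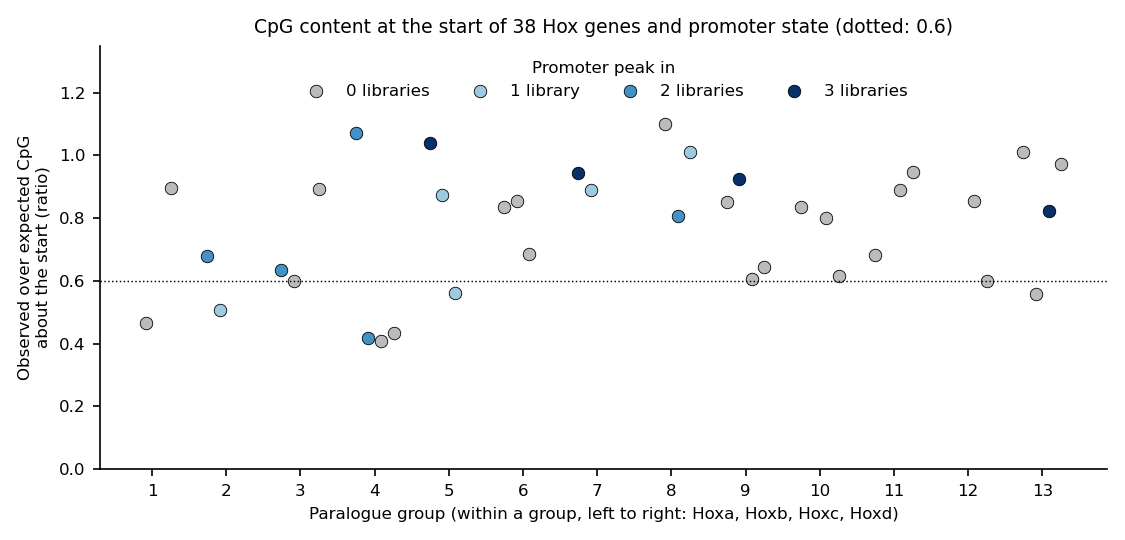
Observed over expected CpG in 501 bases about the start of 38 Hox genes, by paralogue group, with the clusters side by side within a group. Point colour gives the number of libraries with a promoter peak and the dotted line is at 0.6. The 4 drawn genes with a peak in all 3 libraries lie between 0.821 and 1.04, and the 24 genes without a peak, in grey, between 0.409 and 1.1.

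Shown here are the promoters of Hoxa5, open in each library, and of Hoxa13 and Hoxd13, which had no summit in any list. Hoxa13 and Hoxd13, limb and genital patterning genes, were chosen as the paralogues of Hoxc13 and do not stand for the other closed promoters. The RefSeq promoter table of GRCm38.p6, which gives 250 bases before and 50 after a start, held 22 of the 39 Hox genes. Each sequence runs 5′ to 3′ on the strand of its gene, with CG in capitals.
Hoxa5, chr6:52204538-52204837, minus strand: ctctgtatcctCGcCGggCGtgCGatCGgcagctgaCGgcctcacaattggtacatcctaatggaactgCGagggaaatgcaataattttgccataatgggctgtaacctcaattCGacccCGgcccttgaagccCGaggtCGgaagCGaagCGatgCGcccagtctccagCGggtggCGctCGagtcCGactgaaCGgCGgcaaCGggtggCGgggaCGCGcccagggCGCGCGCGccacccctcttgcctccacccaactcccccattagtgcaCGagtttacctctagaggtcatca
Hoxa13, chr6:52260831-52261130, minus strand: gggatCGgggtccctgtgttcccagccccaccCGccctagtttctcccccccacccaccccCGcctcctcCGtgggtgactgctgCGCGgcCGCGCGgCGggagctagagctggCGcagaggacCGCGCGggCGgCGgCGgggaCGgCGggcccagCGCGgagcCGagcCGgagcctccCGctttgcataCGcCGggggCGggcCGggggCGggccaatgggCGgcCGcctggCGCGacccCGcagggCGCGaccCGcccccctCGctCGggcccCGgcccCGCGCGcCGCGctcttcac
Hoxd13, chr2:74667975-74668274, plus strand: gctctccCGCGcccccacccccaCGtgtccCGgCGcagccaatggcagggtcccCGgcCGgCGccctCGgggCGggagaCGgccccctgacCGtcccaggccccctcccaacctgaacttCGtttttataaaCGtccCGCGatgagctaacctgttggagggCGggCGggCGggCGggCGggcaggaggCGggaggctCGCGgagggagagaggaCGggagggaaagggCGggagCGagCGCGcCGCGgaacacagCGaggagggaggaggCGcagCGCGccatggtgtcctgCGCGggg
The 300 bases held 29 CG in Hoxa5, 45 in Hoxa13 and 37 in Hoxd13, against a median of 7 over 27025 genes in the table. None of the 3 held TAATTG. Over the Hox genes of the table, the median was 11.5 CG (6 to 29) in the 6 with a peak in any library. It was 14 (4 to 45) in the 16 without, and Hoxa9 and Hoxd4, which had no summit, held 4 each. At Hoxa7 (9 CG) and Hoxd8 (6 CG), the sequence in the table lies away from the start nearest the peak. These medians therefore do not compare open with closed starts.

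Where a Hox promoter was open, its peak was weak for a promoter. Ranked by −log10 p among all promoter peaks of the library, Hox peaks had a median percentile of 14 in WT, 21.7 in KO1 and 19.2 in KO2, and 11 of 12, 4 of 6 and 10 of 12 stood below the middle of that ranking. The median fold over the local background was 3.89, 4.53 and 4.77 at Hox promoters and 7, 6.45 and 7.51 at all promoters with a peak. Median tag numbers were 18, 10.5 and 14 against 24, 13 and 21. In KO1 and KO2 Hox peaks were wider, at medians of 1206 and 1500 bases against 836 and 1059, while in WT they were 562 against 674.

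Between genotypes, the Hox clusters gave no region and no promoter with a peak shared by KO1 and KO2 and absent from WT. Over all genes 2.32% had a promoter peak in KO1 and KO2 and not in WT, and a count of 0 of 39 is near that background. The reverse, a promoter peak in WT alone, was found for 2 Hox genes, Hoxb5 and Hoxb7, against 2.11% of all genes. Which genes these were changed with the threshold, and neither was in WT alone at the other thresholds. The only Hox gene of WT alone at a −log10 q of at least 5 was Hoxa2, beside 2.92% of all genes. With lists of equal length they were Hoxa2 and Hoxa4, beside 3.17% of all genes. With every deposited peak they were Hoxb1, Hoxb3 and Hoxc6, beside 5.38%. Of the 30 regions, 10 were in all 3 libraries (33.3%, against 27.6% of 47562 regions genome-wide), 0 in KO1 and KO2 alone (7.66% genome-wide), 4 in WT alone (18.7%), 1 in KO1 alone (2.85%), 6 in KO2 alone (28%), 9 in WT and KO2 (14.4%) and 0 in WT and KO1 (0.709%). After the regions of all 3 libraries, the commonest split set KO1, the shallowest library, apart from WT and KO2. At promoters, the 5 Hox genes open in WT and KO2 and not in KO1 stood beside 9.64% of all genes.

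Tags over background were compared at 4 of the promoters open in all libraries, beside 7701 genes of the same kind. The ratio of KO1 to WT was 1.26 at Hoxa5, 2.19 at Hoxa7, 1.99 at Hoxb9 and 1.5 at Hoxc13, against a median of 1.83 over all these genes (5th to 95th percentile 0.789 to 3.93). For KO2 it was 2.12, 1.76, 2.2 and 1.55, against 2.29 (1.1 to 4.52). These 4 genes lay within the middle 90% in both. Between the Msx2-KO libraries the ratio of replicate 2 to replicate 1 was 1.67, 0.803, 1.1 and 1.03, against 1.21 (0.747 to 2.21). The higher ratios of Msx2-KO libraries at Hox promoters were thus also seen at open promoters in general, and what raised them in all genes was not tested. Over the 10 regions of all 3 libraries the medians were 2.02 and 2.16, against 1.97 and 2.3 for all such regions.

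Non-coding genes inside the clusters were counted by the same window. Of 6 lincRNA genes, including Hotair in Hoxc and Hottip beyond Hoxa13, which are studied as partners of chromatin regulators, none had a peak within 1500 bases of its start in any library, against 12.1, 8.85 and 14.6% of all lincRNA genes in WT, KO1 and KO2. Of 9 antisense genes, 3 had a peak in all 3 libraries, among them Gm15050 in Hoxa3 and Hoxb3os, and the other 6 in none, against 23.9, 17.7 and 28.5% of all antisense genes with a peak. The summits at Hoxb3os, 1418, 1353 and 1367 bases from a start, are those of the region in the Hoxb3 exons. Of 7 microRNA genes, Mir615 had one in all 3 libraries, Mir10a in WT alone, and Mir10b, Mir196a-1, Mir196a-2, Mir196b and Gm44463 in none, against 10.9, 7.45 and 11% of all microRNA genes with a peak. The WT summit at Mir10a, 1182 bases from its start, is that of the Hoxb4 promoter, and the nearest KO2 summit, in the same region, lay 1601 bases away, just outside the window.

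The microRNAs of the clusters are shown because they form seed families across clusters, as the Hox genes do across paralogue groups. Mature sequences are from RefSeq (GRCm38.p6), 5′ to 3′, with the seed (bases 2 to 8) in capitals.
miR-10a-5p: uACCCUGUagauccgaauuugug
miR-10b-5p: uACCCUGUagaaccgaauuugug
miR-196a-5p: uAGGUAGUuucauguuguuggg
miR-196b-5p: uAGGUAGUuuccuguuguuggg
miR-615-3p: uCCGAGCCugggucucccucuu
The miR-10 pair, from Hoxb beside Hoxb4 and from Hoxd beside Hoxd4, shares one seed, and the miR-196 family, from Hoxa, Hoxb and Hoxc near the group 9 and 10 genes, shares another. The miR-196 genes lay in the peak-free stretches, and miR-615 lay at the open Hoxc5 exon.

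Genes whose products work with or on Hox loci were read from fixed lists, beside 47.1, 37.9 and 53.7% of all genes with a promoter peak in WT, KO1 and KO2. Of 9 TALE cofactors, which bind DNA together with Hox proteins, 6, 6 and 7 had a promoter peak in WT, KO1 and KO2, and Pbx2 and Meis3 had none. Of 15 Polycomb genes 12, 10 and 14 did, with 9 in all 3 libraries. Among these, Bmi1, a subunit of the complex that ubiquitinates histone H2A, had a peak in KO1 and KO2 (18 and 32 tags) and 12 tags below the threshold in WT, and Pcgf2 had none. Of 6 Trithorax genes 6, 3 and 6 did. Of the 8 ParaHox genes and cluster neighbours Gsx1, Gsx2, Pdx1, Cdx1, Cdx2, Cdx4, Evx1 and Evx2, which are homeobox relatives of the Hox genes used in gut, pancreas and nervous system, none had a peak in any library.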

How the data were processed

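Peak lists of 3 Omni-ATAC-seq libraries were used, grouped by their labels: Msx2-WT (WT) and Msx2-KO replicates 1 and 2 (KO1, KO2). As the study's methods give it, the authors processed reads with Trimmomatic and BWA-MEM (GRCm38, mm10), dropped those of mitochondria and ran MACS2 on each library separately, with duplicates kept. The MACS2 version is not given in the sources used here. The authors deposited a fold enrichment over local background, a −log10 p and a −log10 q for each summit. Their deposited score, 10 times −log10 p cut to a whole number, was left aside. The deposited lists reach down to a p-value of 0.01, so summits with −log10 q above 2 were kept, on chromosomes 1 to 19, X and Y.

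From the deposited fold and −log10 p the tag number was solved, as the whole number that gives −log10 p within 0.001, for 99.93, 99.96 and 99.97% of summits in WT, KO1 and KO2. Tags include duplicates, so intervals and limits cover counting error only. Promoters were 1500 bases on each side of a protein-coding start in GENCODE M21 (basic), the window of the study's methods. Shares carry 95% Wilson intervals and tags 95% Poisson intervals. The steps were tested on simulated data. Software was pandas 2.3.3, scipy 1.17.1, numpy 2.4.6, pysam 0.24.0 and matplotlib 3.10.9 in Python 3.11.15.

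The members, gene lists and motifs were chosen with earlier results of these data known. All members enter the counts, and 1 member is not reported here on its own or drawn in the figures. Values are given in full for Hox genes with a promoter peak in all 3 libraries, for those in another state in Msx2-WT than in KO1 and KO2, and for the 2 regions of each cluster with the largest −log10 q in the weakest library, and genes of the lists are named where their promoter was closed throughout or their state differed by genotype. Other regions and promoters are named to account for all members. The settings varied were the −log10 q (at least 5), every deposited peak, lists of equal length by −log10 p, windows of 500 and 3000 bases, placement by peak interval, other class boundaries, flanks of 0 and 50 kb, 50% reciprocal overlap and leaving out each Msx2-KO library. RefSeq start sites were added after seeing the data.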

Additional observations from a re-analysis of the deposited data

How the results depend on the processing

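Hox promoters with a peak numbered 5 in WT, 2 in KO1 and 6 in KO2 at a −log10 q of at least 5. These were 12.8, 5.13 and 15.4%, against 39, 25.5 and 44.2% of all genes. With every deposited peak they numbered 12 in KO1 and 20 in KO2 (30.8 and 51.3%, against 45.3 and 61.9% of all genes). With lists of equal length they numbered 5 in WT and 5 in KO2 (12.8% in each, against 39.2 and 40.9%). Other windows, placement by interval and RefSeq starts stayed within 1.5 times of the reported counts. Posterior minus anterior was −62.5 points in WT (−82.5 to −21.1) and −37.5 in KO2 (−65.5 to 2.74) with every deposited peak. At a −log10 q of at least 5 and with equal lists it was −18.8 in WT and in KO2 (−53.2 to 9.64 in each). The upper end of the KO2 interval was thus positive in these settings and negative at the main threshold. Covered bases were 1.27% in WT, 0.807% in KO1 and 2.87% in KO2 at a −log10 q of at least 5, and 1.27% in WT and 2.28% in KO2 with equal lists. Regions in all libraries numbered 6 at 50% reciprocal overlap, 3 at −log10 q of at least 5, 16 with every deposited peak and 6 with equal lists, those of Msx2-KO and not WT 1, 1, 1 and 2, and those of WT alone 11, 2 and 9 in the first 3 of these. Hox promoters open in all libraries numbered 2 at −log10 q of at least 5, 10 with every deposited peak and 3 with equal lists. Of all genes, 23.6, 42.6 and 30.7% were open in all libraries at these settings. Those of WT alone numbered 1 at −log10 q of at least 5, beside 2.92% of all genes. Leaving out 1 Msx2-KO library, regions in all remaining libraries numbered 10 to 19, those of Msx2-KO and not WT 1 to 6 and those of WT alone 4 to 14. Hox promoters in the same order numbered 5 to 10, 1 to 2 and 2 to 7. The matching shares of all genes were 35.4 to 44.9%, 2.56 to 8.81% and 2.25 to 11.8%. Fewer summits or libraries enter by construction. The posterior minus anterior difference of WT and KO2 kept its sign in each setting. No paired analysis was possible because the groups share the replicate number 1 alone and no test was run. Depth limits what the lack of a peak means, since the fewest tags that passed were 9 in WT, 5 in KO1 and 6 in KO2.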

Other observations

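The part of the CTCF core CCANNAGGG was found in 6.53% of all 47562 regions, on either strand within 300 bases about the summit, and in 0 of 30 Hox regions. The AP-1 motif TGANTCA was found in 15.8% of all regions and in 1 of 30 Hox regions (3.33%), the WT and KO2 region beyond the Hoxc4 end, which also held 1 TAATTG match. The 10 Hox regions of all 3 libraries had a median G+C of 60.5% and a median CpG ratio of 0.758, against 57% and 0.571 for all 13111 regions of that kind.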
